A study of Mus musculus with 6 samples.

Results

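Heat shock chaperones keep proteins folded, and 10 of their genes were followed here across the 6 RNA-seq libraries of a study of Dot1l, a histone H3 lysine methyltransferase, in mouse endothelial cells. The members were chosen by name from the 24421 genes of the count table. They were 7 genes grouped as stress-inducible (Hspa1a, Hspa1b, Dnajb1, Hsph1, Bag3, Hsp90aa1 and Hspb1) and 3 grouped as constitutive (Hspa8, Hspd1 and Hspe1). The grouping is a label, and whether stress induces each gene was not tested here. All 10 had reads in all 6 libraries. The question was how the members differed in level between each Dot1l-changed library and its control, and whether inducible and constitutive members differed alike.

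Chaperones of the Hsp70 family bind unfolded stretches of client proteins with the help of J-domain proteins such as Dnajb1 and of nucleotide exchange factors such as Hsph1 and Bag3, and Hsp90 receives clients from them. Heat and other insults that unfold proteins free the transcription factor Hsf1, which binds heat shock elements in the promoters of inducible genes. Constitutive members such as Hspa8 serve folding in unstressed cells, and Hspd1 and Hspe1 form the chaperonin of the mitochondrial matrix.

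The skin pair held BECs (blood vascular endothelial cells) from embryos at E15.5, late in gestation. The Cont library came from Tie2-Cre(-); Dot1l 2f/2f embryos and the cKO library from Tie2-Cre(+); Dot1l 2f/2f embryos, so both carried floxed Dot1l and the cKO embryos alone carried Cre, whose Tie2 promoter is active in endothelium and also in part of the blood lineage. These cells were dissociated with collagenase and were those left after removal of cells bearing macrophage antigens, CD45 or Lyve1, with CD31 named by the study as their positive marker, and the RNA of 2 to 3 embryos was pooled in each library. The cultured pairs were the mouse embryonic yolk sac BEC line CRL-2581 and the mouse embryonic dermal LECs (lymphatic endothelial cells) C57-6064L. The OE cells had received a lentivirus with dCas9-VP64, a transcriptional activator, guides to the Dot1l promoter and EGFP, the Cont cells had received an empty lentivirus, and EGFP positive cells from 2 to 3 flasks made each library. Each condition had 1 library, so every comparison below sets 1 library against another, and no test against the spread between replicates was possible.

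Counts summed to between 8863349 and 31032461 reads per library, and the 10 members took 0.267% to 0.520% of them. Dot1l counts were 762 (Cont) and 944 (cKO) in skin, a log2 ratio of -0.07 with an interval of -0.21 to 0.07, so the gene's count did not go with the label and that library is called the library labelled cKO. The counts cover the whole gene and cannot show whether the floxed exons were lost. The study reports an RT-qPCR check of the knockout, with Dot1l normalized to Gapdh and without replicates. In the counts Gapdh was higher by 0.76 on the log2 scale in the library labelled cKO. In the OE-BEC and OE-LEC libraries Dot1l was higher by 1.48 and 1.20 on the log2 scale. Among cell type markers, the 11 pan-endothelial markers were present in all 6 libraries, whereas the lymphatic factor Prox1 had 1304 and 883 reads in the skin BEC libraries and 0 reads in all 4 cultured libraries, the LEC ones included. The 11 macrophage markers summed to 3699 CPM (reads per 1000000 reads of the library) in skin Cont cells and 5764 CPM in the library labelled cKO, although the sort removed cells with macrophage antigens and CD45.

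Hspa1a and Hspa1b encode nearly the same inducible Hsp70 protein from neighbouring genes without introns, on the minus strand of chromosome 17 in GENCODE M21 (mm10), Hspa1a at chr17:34969190-34972156 and Hspa1b at chr17:34956436-34959238. In the RefSeq annotation of GRCm38.p6, the 250 bases before their starts were the same at 247 positions. The sequences of these stretches are printed to show this likeness and the heat shock element letters that they share. They run 5′ to 3′ on the minus strand, at chr17:34972157-34972406 and chr17:34959239-34959488, with the element letters GAANNTTC in capitals.
Hspa1a: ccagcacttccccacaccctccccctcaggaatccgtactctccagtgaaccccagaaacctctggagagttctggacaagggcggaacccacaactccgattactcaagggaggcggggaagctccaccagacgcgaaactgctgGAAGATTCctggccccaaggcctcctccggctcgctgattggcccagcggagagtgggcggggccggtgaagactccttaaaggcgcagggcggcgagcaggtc
Hspa1b: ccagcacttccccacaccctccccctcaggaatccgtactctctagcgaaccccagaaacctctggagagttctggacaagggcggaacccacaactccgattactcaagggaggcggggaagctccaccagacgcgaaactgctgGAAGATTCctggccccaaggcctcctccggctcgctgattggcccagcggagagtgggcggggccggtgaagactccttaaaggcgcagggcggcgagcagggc

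Because the genes are so alike, 61.7% of the 75-base stretches of the Hspa1a transcript and 55.8% of those of the Hspa1b transcript also occurred in the transcript of another gene, in Hspa1b for 52.7% and in Hspa1a for 55.8%. Their counts are therefore uncertain one by one, and their sum is given too. Hspa1a also overlaps Gm20481 on the opposite strand.

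The library labelled cKO had far more Hspa1a and Hspa1b reads than its control. Hspa1a rested on 22 reads in the skin control and on 271 in the library labelled cKO, on 10 and 14 in the Cont and OE libraries of cultured BECs, and on 15 and 27 in those of cultured LECs. In the same order, Hspa1b had 29 and 319 reads, 109 and 138 reads, and 165 and 249 reads. In CPM, the library labelled cKO held the highest level of the 6 for both genes, at 24.4 CPM for Hspa1a and 28.8 CPM for Hspa1b. The next level below was 2.48 CPM for Hspa1a, in the skin Cont library, and 9.90 CPM for Hspa1b, in OE-BECs, and the exact 95% Poisson intervals of these levels did not reach those of the library labelled cKO.

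On normalized counts (median of ratios of the pair of libraries), Hspa1a was higher in the library labelled cKO by 3.24 on the log2 scale, with an exact 95% Clopper-Pearson interval of 2.62 to 3.94 that covers counting error only. Hspa1b was higher by 3.08 (2.53 to 3.68). Summed, the genes had 51 Cont reads against 590, an 8.90-fold higher normalized count (6.68 to 12.1). A minimum of 100 normalized counts, in whichever library of the pair is higher, left 10212 genes, among which Hspa1a was 17th and Hspa1b 24th from the largest ratio. In bulk RNA of this kind, more RNA per cell and more cells of a type that makes it cannot be told apart.

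In the cultured pairs, Hspa1a and Hspa1b together were also higher in the OE libraries, by less. Their summed normalized count was 1.67-fold higher in OE-BECs (1.30 to 2.14) and 1.31-fold higher in OE-LECs (1.08 to 1.59). Hspa1b alone was higher by 0.72 on the log2 scale in OE-BECs (0.35 to 1.10) and by 0.36 in OE-LECs (0.07 to 0.66), whereas the intervals of Hspa1a, with its 10 to 27 reads, included 0 in both pairs.

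The reads also divided differently between these 2 genes in skin and in culture. For each Hspa1a read there were 1.32 Hspa1b reads in the skin control (0.731 to 2.41) and 1.18 in the library labelled cKO (0.998 to 1.39). In the 4 cultured libraries there were 9.22 to 11.0 Hspa1b reads per Hspa1a read, and the lowest end of their intervals was 5.68. Within a pair this ratio differed by less than counting error, and it needs no scaling between libraries. Tissue, cell source and experiment cannot be told apart in the difference between skin and culture, and no part of it was tested.

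**Figure D1:**
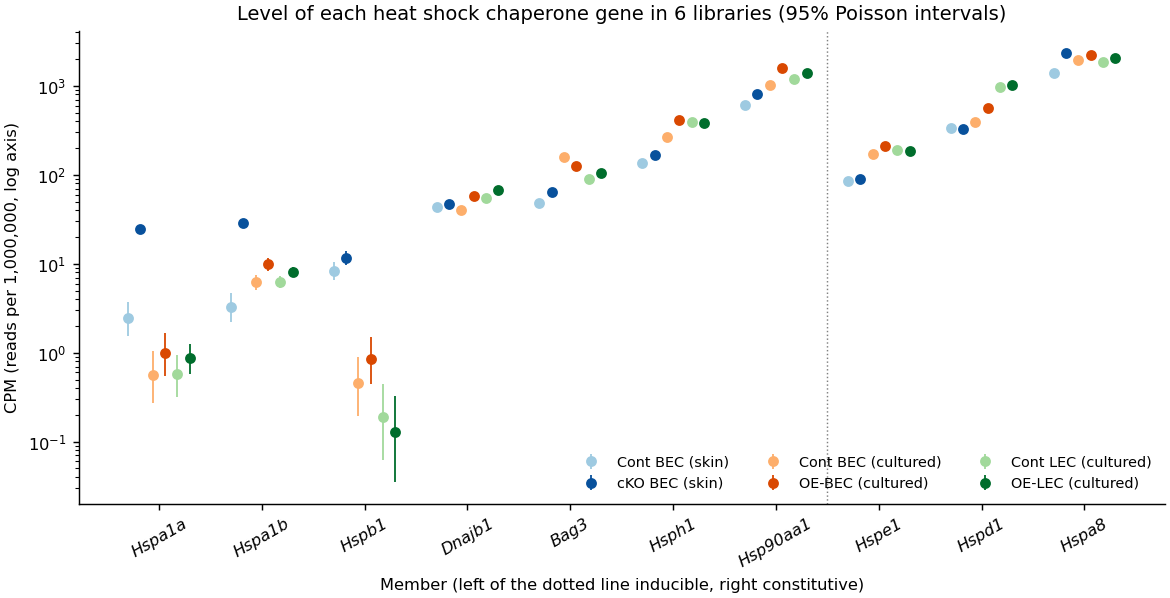
Level of the 10 members in CPM (log axis) in the 6 libraries, 1 point per library, with exact 95% Poisson intervals that cover counting error only. Hspa1a and Hspa1b stand highest in the library labelled cKO (24.4 and 28.8 CPM), and Hspb1 is below 1 CPM in the 4 cultured libraries.

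Hspa8, the constitutive Hsp70 of the cytosol (chr9:40800984-40810087, plus strand), was the member with the highest level per kilobase of exon in every library, between 328 and 541 CPM per kilobase. It had 12513 reads in the skin control against 25803 in the library labelled cKO, 34292 and 30812 in cultured Cont BECs and OE-BECs, and 48316 and 63461 in Cont LECs and OE-LECs. In CPM the skin Cont library was lowest (1412 CPM) and the library labelled cKO highest (2328 CPM), with the 4 cultured libraries between 1850 and 2211 CPM. Its log2 ratio was 0.67 in the skin pair (0.64 to 0.70), 0.23 in OE-BECs (0.21 to 0.25) and 0.16 in OE-LECs (0.15 to 0.18). The skin difference was thus 1.59-fold, and 7.14% of the 10212 genes had a ratio as large. The gene hosts 3 small nucleolar RNAs (Snord14c, Snord14d and Snord14e), and 41.3% of its 75-base stretches were shared with transcripts of 13 other genes, most with Gm15459.

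Set against Hspa8 in the same library, the inducible pair stood out in the library labelled cKO. There were 2.29 Hspa1a and Hspa1b reads per 100 Hspa8 reads there, against 0.408 in the skin Cont library. The cultured BEC pair had 0.347 (Cont) and 0.493 (OE) and the cultured LEC pair 0.373 and 0.435, so all 5 other libraries lay below 0.5.

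**Figure D2:**
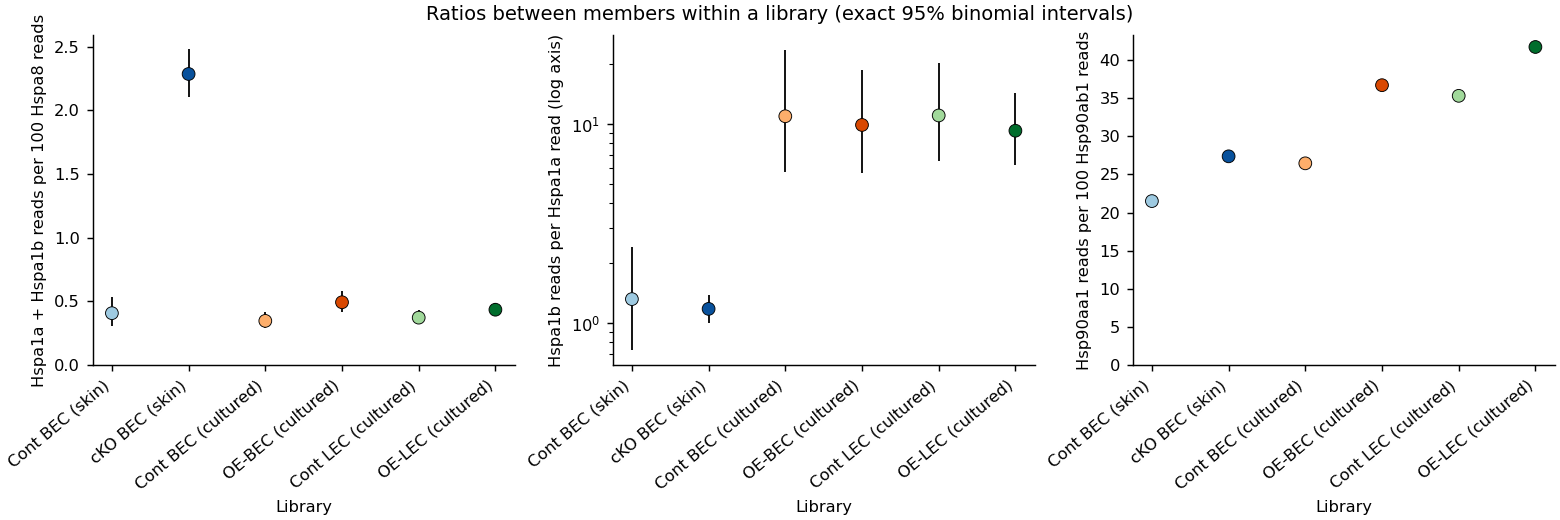
Ratios between members within each library, with exact 95% binomial intervals on reads: summed Hspa1a and Hspa1b reads per 100 Hspa8 reads (left), Hspa1b reads per Hspa1a read on a log axis (middle) and Hsp90aa1 reads per 100 Hsp90ab1 reads (right). The first ratio is 2.29 in the library labelled cKO and at most 0.493 elsewhere, and the second is 1.32 and 1.18 in skin and 9.22 to 11.0 in culture.

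The co-chaperones of Hsp70 had smaller ratios than Hspa1a and Hspa1b in the skin pair, between 0.07 and 0.34 on the log2 scale. Dnajb1 (chr8:83608193-83612653, plus strand) is the J-domain protein that loads Hsp70 with clients. Its reads, in the order of the libraries above, were 386 and 527 in skin, 708 and 796 in cultured BECs, and 1448 and 2072 in cultured LECs. The log2 ratio of Dnajb1 was 0.07 in the skin pair, with an interval that included 0 (-0.12 to 0.26), and was 0.55 in OE-BECs (0.40 to 0.70) and 0.29 in OE-LECs (0.19 to 0.38). The skin pair, with the largest ratio of Hspa1a and Hspa1b, thus had the smallest of Dnajb1, with 3.08 Dnajb1 reads per 100 Hspa8 reads for Cont against 2.04 for the library labelled cKO.

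Hsph1, the Hsp110 that exchanges nucleotide on Hsp70 (chr5:149614287-149636376, minus strand), had 1205 and 1831 reads in skin, 4739 and 5710 in cultured BECs, and 10181 and 11970 in cultured LECs. Its log2 ratio was 0.23 in the skin pair (0.12 to 0.33), 0.65 in OE-BECs (0.60 to 0.71) and 0.00 in OE-LECs (-0.04 to 0.04). Both skin libraries were below the cultured ones, with 136 and 165 CPM against 268 to 410 CPM. No 75-base stretch of Hsph1, Dnajb1 or Bag3 was shared with another gene.

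Bag3, which binds Hsp70 and the small chaperones and directs clients to autophagy (chr7:128523616-128546981, plus strand), was the one member whose counting intervals lay on opposite sides of 0 in the cultured pairs. Hspb1 and Hspe1 also had ratios of opposite sign there, with OE-LEC intervals that included 0. Bag3 had 429 and 705 reads in skin, 2792 and 1731 in cultured BECs, and 2344 and 3216 in cultured LECs. The log2 ratio was 0.34 in the skin pair (0.16 to 0.52), -0.31 in OE-BECs (-0.39 to -0.22) and 0.23 in OE-LECs (0.15 to 0.30). Cultured Cont BECs held the highest level of the 6 libraries, 158 CPM, and skin Cont BECs the lowest, 48.4 CPM.

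Hsp90aa1, the inducible cytosolic Hsp90 (chr12:110690605-110702728, minus strand), was higher in the changed library of all 3 pairs. It had 5339 and 8995 reads in skin, 18202 and 22200 in cultured BECs, and 31124 and 42991 in cultured LECs. The log2 ratio was 0.37 (0.33 to 0.42) in skin, 0.67 (0.64 to 0.70) in OE-BECs and 0.24 (0.21 to 0.26) in OE-LECs. Hsp90ab1, the constitutive Hsp90 and not a member, had log2 ratios of 0.03, 0.20 and -0.01 in the same order. Per 100 Hsp90ab1 reads there were 21.5 and 27.4 Hsp90aa1 reads in skin, 26.5 and 36.7 in cultured BECs, and 35.3 and 41.7 in cultured LECs, so the share of the inducible Hsp90 was higher in the changed library of each pair by more than counting error. Of the 75-base stretches of Hsp90aa1, 53.1% were shared with other transcripts, mostly of Gm12346.

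Hspb1, a small heat shock protein that holds unfolding clients (chr5:135887919-135889563, plus strand), was at 8.35 and 11.6 CPM in the skin libraries, from 74 and 129 reads. In culture it had 8 and 12 reads in BECs and 5 and 4 in LECs, which is 0.129 to 0.861 CPM. Its log2 ratio in the skin pair was 0.42, with an interval (0.00 to 0.86) that barely cleared 0. The cultured ratios, 0.97 in OE-BECs (-0.44 to 2.46) and -0.55 in OE-LECs (-2.89 to 1.66), could not be told from 0 at this depth. The transcript shared 47.3% of its 75-base stretches with Hsp25-ps1, a pseudogene.

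Hspd1 (Hsp60) and Hspe1 (Hsp10), the ring and the lid of the mitochondrial chaperonin, are read in opposite directions from neighbouring starts on chromosome 1, Hspd1 at chr1:55077835-55088243 on the minus strand and Hspe1 at chr1:55088132-55091307 on the plus strand. RefSeq gives Hspd1 2 starts, and the promoter window of Hspe1 shares 285 bases with the window of 1 of them and 4 bases with that of the other, which holds no heat shock element match. The 30 bases at chr1:55088053-55088082, written on the strand of Hspe1, are printed because they hold 3 linked heat shock element matches (in capitals) that lie before the start of Hspe1 and before 1 of the 2 RefSeq starts of Hspd1.
Hspe1: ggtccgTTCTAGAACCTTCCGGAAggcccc

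Hspd1 had 2957 and 3609 reads in skin, 6908 and 7816 in cultured BECs, and 25079 and 31536 in cultured LECs. Hspe1 had 749 and 1006, 3067 and 2920, and 4998 and 5797. In the skin pair their log2 ratios were -0.09 for Hspd1 (-0.16 to -0.02) and 0.05 for Hspe1 (-0.09 to 0.19), which with that of Dnajb1 were the smallest in size. The OE-BEC ratios were 0.56 for Hspd1 (0.51 to 0.61) and 0.31 for Hspe1 (0.24 to 0.39), and the OE-LEC ratios 0.10 (0.08 to 0.12) and -0.02 (-0.07 to 0.04).

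The ratio of the reads of Hspd1 and Hspe1 differed between cell sources. There were 3.95 and 3.59 Hspd1 reads per Hspe1 read in the skin libraries, 2.25 and 2.68 in cultured BECs, and 5.02 and 5.44 in cultured LECs. Hspd1 was the second member per kilobase in the LEC libraries, at 363 and 385 CPM per kilobase, where Hsp90aa1 was second in the other 4. The exons of the pair overlap, so reads there could count for either gene where strand is not used, and 33.7% of the stretches of Hspd1 were shared with other genes.

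Read over all members, 9 of 10 ratios were above 0 in the skin pair, 9 of 10 in OE-BECs and 8 of 10 in OE-LECs, and the 8 include Hsph1 at 0.00, which lay just below 0 under 3 other scalings. Among all genes with a minimum of 100, 45.7%, 47.8% and 51.4% had ratios above 0. The member counts in culture include Hspa1a and Hspb1, which did not meet that minimum there, so these sets are not like for like. By a 3-fold rule (more than 3-fold, with a higher normalized count of at least 5 in the skin pair and 3 in the cultured pairs), Hspa1a and Hspa1b were called higher in the library labelled cKO, and 5.17% of the 15993 genes tested there were called higher and 2.41% lower. No member passed this rule in OE-BECs, where 8.02% of 14792 genes were called higher and 5.27% lower, or in OE-LECs, where 2.77% of 13883 genes were called higher and 2.09% lower.

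By a 1.5-fold rule that keeps the minimum of 100 normalized counts, 3 of 10 members were called higher in the library labelled cKO (Hspa1a, Hspa1b and Hspa8), against 8.88% of the 10212 genes tested, and 0 lower, against 7.69%. In OE-BECs 3 of the 8 members that met the minimum were called higher (Hspa1b, Hsph1 and Hsp90aa1), against 7.25% of 9867 genes, and 0 lower, against 11.0%. In OE-LECs 0 of 8 were called in either direction, against 3.72% higher and 3.05% lower of 10503 genes. Hspa1a and Hspb1 did not meet the minimum in culture. Hspa1a, Hspa1b and Hspb1 in the skin pair and Hspa1b in OE-BECs met it through the changed library alone. The OE-BEC members lay close around 1.5-fold, with Hspa1b (1.65-fold), Hsp90aa1 (1.59-fold) and Hsph1 (1.57-fold) past it and Hspd1 (1.48-fold) and Dnajb1 (1.47-fold) just short.

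**Figure D3:**
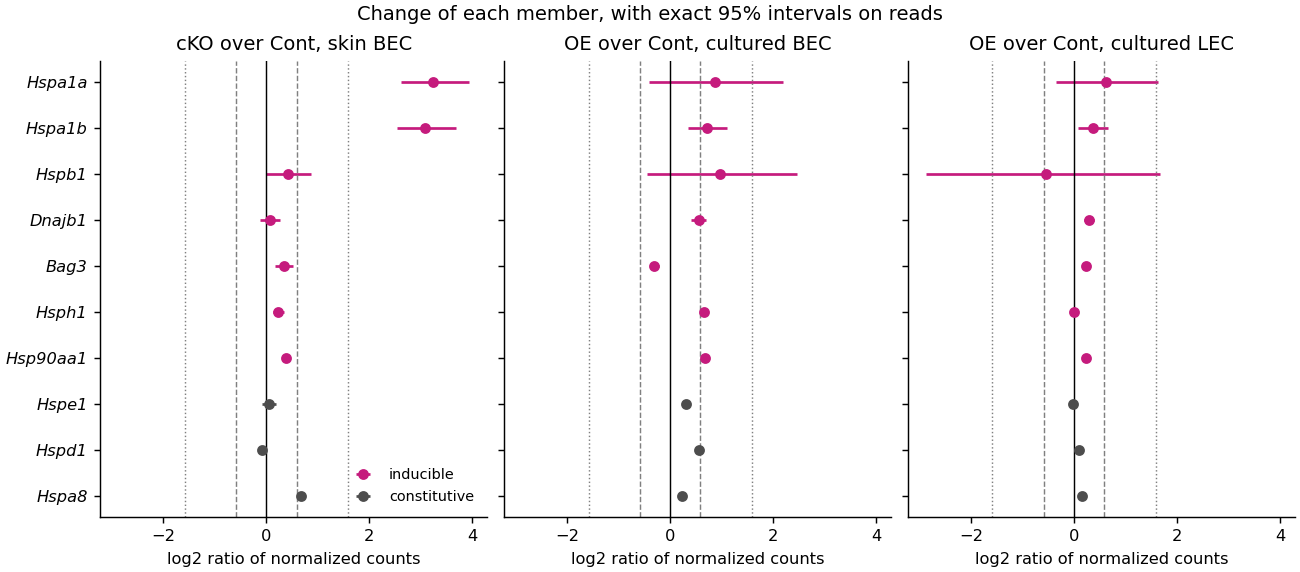
Log2 ratio of normalized counts, changed library over control, for each member in the skin BEC, cultured BEC and cultured LEC pairs, with exact 95% intervals that cover counting error only. Solid lines mark no difference, dashed lines 1.5-fold and dotted lines 3-fold; Hspa1a (3.24) and Hspa1b (3.08) in the skin pair are the members past 3-fold.

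The median log2 ratio of the 7 inducible members was above that of the 3 constitutive members in each pair. The medians were 0.37 and 0.05 in the skin pair, 0.67 and 0.31 for OE-BECs, and 0.24 and 0.10 for OE-LECs, which makes differences of 0.33, 0.36 and 0.14. Over all genes that met the minimum of 100, the medians were -0.04, -0.02 and 0.01. The inducible median was the ratio of Hsp90aa1 in each pair. The constitutive median was that of a mitochondrial gene, Hspe1 in the skin pair and OE-BECs and Hspd1 in OE-LECs. Class and cell compartment therefore cannot be told apart in these differences. The classes also overlapped in each pair. In skin the constitutive Hspa8 (0.67) was above every inducible member but Hspa1a and Hspa1b. In OE-BECs the inducible Bag3 (-0.31) was below all 3 constitutive members, and in OE-LECs Hsph1 (0.00) was below Hspd1 (0.10). The class difference in the skin pair depends on where Hsp90aa1 is put: with this gene among the constitutive members it was 0.17, and in OE-BECs 0.25. With the reads of Hspa1a and Hspa1b counted as 1 gene, the inducible median of the skin pair was 0.36.

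The promoter windows of RefSeq (250 bases before and 50 after a start) were searched for the heat shock element letters GAANNTTC and TTCNNGAA, each of which is its own reverse complement, so that both strands are covered. There were windows for 8 of the 10 members, all but Hspa8 and Hsp90aa1. At least 1 match was in the windows of 7 of the 8, with none in Dnajb1, and 15.1% of the 32851 promoter windows of all genes held a match. The 8 members had 11 windows, whereas the shares over all genes count single windows, so the figures are not like for like. Hspd1 and Hspe1 hold the same matches, and Hspa1a and Hspa1b have nearly the same letters, so the 7 are not separate. Linked matches of 3 units, in which both motifs share their middle GAA or TTC, were in the windows of Hsph1, Hspd1 and Hspe1, and in 0.603% of all windows. The matches of Hspa1a and Hspa1b began 104 bases before their starts, and that of Bag3 and the linked match of Hsph1 after their starts. Hspb1 had 2 matches, in the 52 bases at chr5:135887790-135887841 on the plus strand, printed for the member whose CPM differed most over the 6 libraries.
Hspb1: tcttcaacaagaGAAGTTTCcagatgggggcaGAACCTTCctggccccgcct

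A match is a run of letters and not a known binding site. The members with the linked form, Hsph1, Hspd1 and Hspe1, had log2 ratios between -0.09 and 0.23 in the skin pair, and Hspa1a and Hspa1b, with 1 match of 2 units each, had 3.24 and 3.08. In OE-BECs Hsph1, Hspd1 and Hspe1 were at 0.65, 0.56 and 0.31, and Hspa1b at 0.72. In OE-LECs they were at 0.00, 0.10 and -0.02, and Hspa1b at 0.36. The search took exact letters within these windows only, and a link between matches and ratios was not tested.

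Other chaperone genes were counted in fixed lists. Of 9 other stress-inducible chaperones, 3 were higher and 6 lower in the library labelled cKO, with a median log2 ratio of -0.25 and none past 1.5-fold among the 6 that met the minimum of 100. Those with the highest control levels were Serpinh1, the collagen chaperone (-0.36), Dnaja1, a J-domain protein (-0.25), Chordc1 (-0.18) and Hspa4l, an Hsp110 (0.25). In OE-BECs 5 of the 8 with a ratio were higher and the median was 0.12, and in OE-LECs the median was 0.16. Cryab, a small heat shock protein, passed the 3-fold rule in OE-LECs with 278 and 1271 reads, a log2 ratio of 1.96 (1.77 to 2.15). Its ratio was 1.34 in OE-BECs (0.87 to 1.83) and -0.58 in the skin pair (-1.11 to -0.06).

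The constitutive partners of Hsp70 and Hsp90 were near 0 in the skin pair and mostly higher in OE-BECs. Of 16 such genes, 9 were higher and 7 lower in the library labelled cKO (median log2 ratio 0.02), and in OE-BECs 15 were higher and 1 lower (median 0.23), with 3 past 1.5-fold. In OE-LECs the median was 0.04. The 8 subunits of the CCT chaperonin, which folds actin and tubulin, had medians of -0.14 in skin, with 7 lower, 0.24 in OE-BECs, with 7 higher, and 0.01 in OE-LECs. The 17 endoplasmic reticulum chaperones and unfolded protein response genes had medians of 0.03, 0.26 and 0.07, and the 7 other mitochondrial chaperones and proteases 0.21, -0.02 and 0.05. In OE-BECs, Hspa5, the Hsp70 of the endoplasmic reticulum, was at 0.37 and Hspa9, that of mitochondria, at 0.15.

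The main heat shock factors had lower normalized counts in the library labelled cKO. These RNA counts do not measure the activity of the factors, which was not tested. Hsf1 counts were 232 and 237 in the skin pair, a log2 ratio of -0.35 (-0.61 to -0.08), and Hsf2 had 310 and 271, a ratio of -0.57 (-0.81 to -0.33). For Hsf1 the ratio was 0.17 in OE-BECs and -0.09 in OE-LECs. The 4 genes of this list, with Hsf4 and the Hsf1-binding Hsbp1, had medians of -0.09, 0.02 and -0.05.

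**Figure D4:**
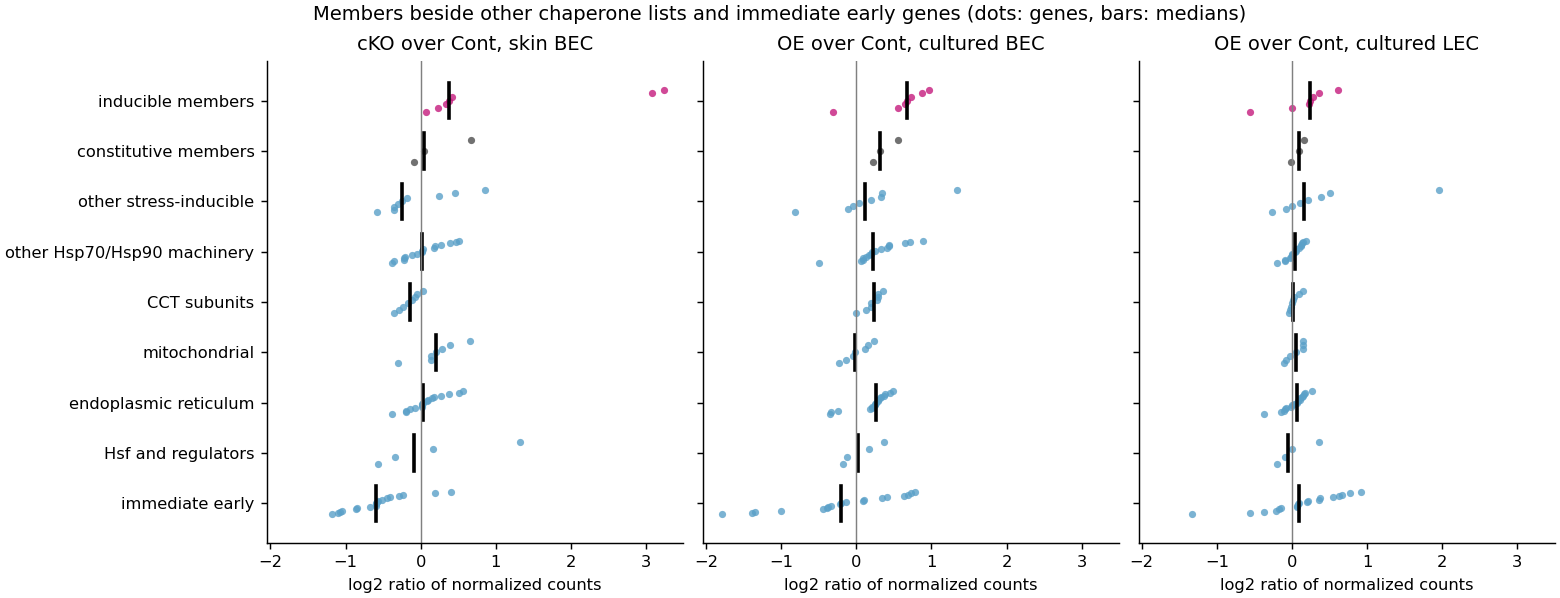
Log2 ratio of normalized counts (changed library over control) of each gene in the inducible and constitutive members, other chaperone lists and immediate early genes, 1 dot per gene, with the median of each list as a black bar. The inducible members have medians of 0.37, 0.67 and 0.24 in the skin BEC, cultured BEC and cultured LEC pairs, and the other stress-inducible chaperones -0.25, 0.12 and 0.16.

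Several gene groups moved with the skin pair, and their part in the chaperone values was not tested. Of 19 immediate early genes, which cells induce within minutes of handling or growth signals, 17 were lower in the library labelled cKO (median log2 ratio -0.59; -0.20 in OE-BECs and 0.09 in OE-LECs), among them Fos (-1.05), Klf6 (-0.59), Egr1 (-0.44) and Jun (-0.24). Of 11 macrophage markers 10 were higher. Among all genes of the skin pair that met the minimum of 100, 45.7% were higher. The 7 lymphatic markers summed to 2788 and 3246 CPM, with 2 of the 6 with reads higher and 4 lower (median log2 ratio -0.22). Among them Lyve1 had 9105 and 19959 reads (0.75), while Prox1 (-0.94) and Reln (-0.87) were lower. The 10 keratinocyte markers summed to 262 and 415 CPM, with 7 higher and 3 lower. Krt1 had 33 and 254 reads and Krt10 51 and 263, whereas Krt17 (-0.76), Krt14 (-0.33) and Trp63 (-0.06) were lower. Krt5 was at 0.16, with an interval that included 0 (-0.05 to 0.37). The 8 fibroblast markers summed to 2858 and 2097 CPM, the 11 skeletal muscle markers to 44.6 and 27.4 CPM, and the 11 pan-endothelial markers to 6517 and 4099 CPM. Gapdh was higher by 0.76 on the log2 scale.

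The cultured pairs held few reads of other cell types. There the keratinocyte markers summed to at most 8.89 CPM, the skeletal muscle markers to at most 1.58 CPM, the fibroblast markers to 2.83 to 20.5 CPM and the macrophage markers to 35.5 to 95.8 CPM, and of the keratinocyte markers 6 to 9 of 10 were at 0 reads. The pan-endothelial markers summed to 8136 CPM (Cont) and 4974 CPM (OE) in the BEC pair, and to 6817 and 6038 CPM in the LEC pair. In OE-BECs 10 of these 11 markers were lower and 1 higher. Flt1 (-2.14 on the log2 scale) and Cldn5 (-1.73) were called lower there by the 3-fold rule, against 5.27% of all genes tested. The lymphatic ones summed to between 749 and 2105 CPM, nearly all from Lyve1 and Flt4. The other lymphatic markers had at most 5 reads in any cultured library, and 3 to 4 of the 7 were at 0, in the LEC libraries too. In OE-BECs the precursor ribosomal RNA gene Rn45s took 10.9% of reads, against 5.91% in its control.

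Finally, genes were ranked by the likeness of their level over the 6 libraries to the mean profile of the inducible members (Pearson r of log2(CPM + 1), among 9707 genes with a mean of at least 10 CPM). The profile followed Hspa1b (r = 0.96) and Hspa8 (0.72) more than Hsp90aa1 (-0.03), Bag3 (-0.23), Hsph1 (-0.24) or Dnajb1 (0.08). Each of these but Hspa8 is part of the mean it is set against, so its r is partly with itself, and Hspa1a and Hspb1 fell below the minimum of 10 CPM and have no r. The constitutive Hspd1 and Hspe1 were at -0.33 and -0.35. The non-member genes with the highest r were Pfkfb3 and Hk2, which encode enzymes of glycolysis and its control (0.98 and 0.97), then Mrps35 (0.97), Aptx (0.95), Calm2 (0.95), Scnm1 (0.93), 1810043G02Rik (0.91), Wwp2 (0.90), Dvl2 (0.90) and Flii (0.90). Pfkfb3 had 310 and 926 reads and Hk2 342 and 1241 in the skin pair. With 6 points, 1 of which is far above the others, these r describe the libraries and carry no test.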

How the data were processed

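The authors made ScriptSeq v2 libraries from 6 samples, trimmed adapters with skewer, aligned reads to mm10 with STAR, counted reads per gene with VERSE and deposited raw counts, without normalization, for 24421 genes. How that counting treats reads that match several genes or opposite strands was not worked out here. Reads carry no molecular identifiers, so PCR copies are not independent molecules and intervals cover counting error only.

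Totals ranged from 8863349 to 31032461 reads. Groups followed the sample labels and the study's methods. Counts were normalized by the median of ratios of DESeq2 1.42.0 (R 4.3.3) on the 2 libraries of a pair, the 3-fold rule being that of the methods, and ratios, Poisson, binomial and Clopper-Pearson 95% intervals were computed in Python 3.11.15 with scipy 1.17.1 and pandas 2.3.3. No test was made, with 1 library per condition. The interval of a difference between the cultured pairs is normal on log counts. Steps were tested on simulated data.

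The members and lists were chosen with earlier results of these data known. Named were all members, Dot1l and the 10 genes of most similar profile. Of some other lists, up to 4 genes were named, by highest control CPM or the 3-fold rule. Not every list gene past that rule was named. Lyve1, Gapdh, Hsf1, Rn45s, Krt1, Krt10 and a few list genes were also named where they bear on a library. Alternatives were size factors of all 6 libraries, TMM of edgeR 4.0.16, total counts, a pseudocount of 1, summed Hspa1a and Hspa1b, Hsp90aa1 as constitutive, and other folds and minimums; a minimum of 100 for the mean of both libraries was chosen after seeing the data. Positions are from GENCODE M21 and promoters from RefSeq (GRCm38.p6).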

Additional observations from a re-analysis of the deposited data

Results flagged for a closer look

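Bag3 was singled out because its log2 ratio to control lay on opposite sides of 0 in the cultured pairs, with counting intervals that both excluded 0. It was -0.31 in OE-BECs (2792 reads in Cont and 1731 in OE) and 0.23 in OE-LECs (2344 and 3216 reads), so that OE-LECs exceeded OE-BECs by 0.53 (0.42 to 0.65). With 1 library in each group the difference was not tested across samples. No other member had intervals on opposite sides of 0. Of the differences whose interval excluded 0, that of Hsph1 was the largest in size, -0.65 (-0.72 to -0.58), from 0.65 in OE-BECs and 0.00 in OE-LECs.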

How the results depend on the processing

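No class median changed direction under any alternative tried, and of the member ratios only that of Hsph1 in OE-LECs did, from 0.00 (with an interval that includes 0) to slightly below 0 with size factors of all 6 libraries, TMM and total counts. The 30 member ratios (10 members in 3 pairs) kept within their counting intervals with size factors of all 6 libraries, TMM factors and a pseudocount of 1, and 25 of 30 did with total counts. With total counts the median of the inducible members was 0.43 in the skin pair and 0.63 in OE-BECs. With Hsp90aa1 among the constitutive members, their median was 0.21 in the skin pair, 0.44 in OE-BECs and 0.13 in OE-LECs, and the inducible minus constitutive difference was 0.17 in the skin pair and 0.25 in OE-BECs. Lowering the threshold of the 1.5-fold rule to 0.32 on the log2 scale gave 6 members in the skin pair, 5 in OE-BECs and 1 in OE-LECs, each higher, against 18.9%, 18.6% and 9.22% of all genes tested. A minimum of 20 lowered the share of all genes past the 3-fold rule, both directions together, from 7.58% to 3.85% in the skin pair, from 13.3% to 4.03% in OE-BECs and from 4.86% to 1.35% in OE-LECs. With no minimum beyond 1 read, the share past 1.5-fold was 37.6%, 40.9% and 26.9% in place of 16.6%, 18.2% and 6.77%. The minimum of 100 for the mean of both libraries, chosen after seeing the data, left the member counts at 3, 3 and 0, against 7.93%, 6.89% and 3.42% of all genes called higher. No library could be left out, and no paired analysis was possible because each condition had 1 library. Depth limits Hspa1a and Hspb1 in culture, where 4 to 27 reads leave wide intervals.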
